A study of Homo sapiens with 12 samples.

Results

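The 3 D-type cyclins, their kinase partners CDK4 and CDK6, 4 inhibitors of these kinases (CDKN1B, CDKN2A, CDKN2C and CDKN2D) and the retinoblastoma gene RB1 were examined in 2 Ewing sarcoma cell lines, TC71 and TC32. The members were all probe sets to which the platform annotation gives 1 of these 10 gene symbols alone. They came to 24 of the 54613 non-control probe sets and covered 9 genes. CDKN2C was not analysed here, because no probe set carried its symbol alone. The 4 groups were TC71 with 100 nM mithramycin, TC71 with solvent control, TC32 with 100 nM mithramycin and TC32 with solvent control, each with 3 arrays described in the labels as biological replicates and with RNA taken after 6 h. Mithramycin is a DNA-binding antitumour antibiotic that prefers GC-rich sequence. Each line is 1 established human culture, so differences between the lines compare those cultures.

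D-type cyclins bind CDK4 or CDK6, and the active complexes phosphorylate the retinoblastoma protein, which then releases E2F transcription factors that switch on genes of DNA replication. The INK4 proteins, among them the products of CDKN2A and CDKN2D, bind and block CDK4 and CDK6, whereas p27, the product of CDKN1B, binds cyclin-kinase complexes and blocks CDK2 in particular. CCND1 is known as a highly expressed gene in Ewing sarcoma, a tumour driven in most cases by the EWS-FLI1 fusion.

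Values are log2 robust multi-array average (RMA) values, in which 1 unit is a doubling, and a change is one relative to the rest of the array. A call means an adjusted p under 0.05 in limma, with Benjamini-Hochberg adjustment over all 54613 probe sets. The lowest correlation between arrays of 1 group was 0.9948. Of 8 Ewing sarcoma markers 7 were measured, and their mean level lay between 9.22 and 10.31 on every array. The 18 measured markers of other cell types (of 19 listed) had mean levels of 3.22 to 3.54 per array, and single genes averaged 2.14 to 5.25, with a median of 3.25. The top of that range is set by TTR alone, and the next highest marker, MYH7, averaged 4.66. With the arrays centred on hybridization controls, the median change of all probe sets was 0.14 in TC71 and -0.09 in TC32, against 0.05 and 0.06 in the deposited scaling. The share of calls that were higher was then 64.7% in TC71 and 19.97% in TC32, against 51.5% and 53.6%. For the difference of the lines' effects that share was 93.3%, against 63.8%. Centring on housekeeping genes gave 40.6% higher in TC71.

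CCND1, which encodes cyclin D1, showed the largest change of any member with mithramycin in TC71, and both of its probe sets were lower with the drug in both lines. On the brighter set, 208712_at, CCND1 read 9.70, 9.63 and 9.61 in TC71 with mithramycin, against 10.58, 10.60 and 10.63 in TC71 controls. In TC32 it read 11.24, 11.18 and 11.12 with mithramycin, against 11.40, 11.34 and 11.49 in controls. Treated and control arrays did not overlap in either line, and every TC32 array lay above every TC71 array. In bulk RNA, a change in some cells and a smaller change in all cells cannot be told apart. CCND1 fell to 0.516 times the control in TC71 (log2 -0.95 ± 0.06, model SE, adjusted p = 1.86e-07 in limma). In TC32 it fell to 0.851 times the control (-0.23 ± 0.06, adjusted p = 0.0118). CCND1 was chosen with its response known, so these adjusted p values are descriptive. Of the 12 fits without 1 array, 1 lost the TC32 call, that without TC32 control replicate 3 (-0.19, adjusted p = 0.055). That without TC32 mithramycin replicate 3 barely kept it (-0.21, limma adjusted p = 0.0493). The fits without a TC71 array cannot move the TC32 change, which stayed at -0.23 in them. With the TC32 groups alone in the fit the adjusted p was 0.0534.

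The second CCND1 set, 208711_s_at, averaged 9.59 ± 0.04 in TC71 with mithramycin and 10.36 ± 0.09 in TC71 controls (SD, n = 3 each). It averaged 10.63 ± 0.04 in TC32 with mithramycin and 10.92 ± 0.12 in TC32 controls. This set too separated treated from control arrays in both lines, with changes of -0.78 ± 0.08 in TC71 (adjusted p = 5.23e-06) and -0.29 ± 0.08 in TC32 (adjusted p = 0.00899). Its TC32 call was kept in all 20 alternative fits, with a highest limma adjusted p of 0.0411, without TC32 control replicate 2. The TC71 change minus the TC32 change was -0.72 ± 0.09 on the brighter set and -0.49 ± 0.11 on the other. This difference is given as a description, without a test, since the gene was chosen with it known. The TC71 and TC32 changes make up that difference, so their adjusted p values and the rank of CCND1 in TC71 are descriptions too. Centred on hybridization controls, the difference was -0.48 and -0.25. In TC71, signs of RNA quality moved with the treatment: the difference between the 3' and 5' beta-actin control sets was 0.88 ± 0.10 with mithramycin and 1.45 ± 0.48 in controls, where replicate 1 stood highest, at 2.0. In TC32 it was 0.60 ± 0.08 with mithramycin and 0.71 ± 0.04 in controls. Without TC71 control replicate 1 the brighter CCND1 set changed by -0.97 in TC71, and with that beta-actin measure in the model by -0.98. The other set changed by -0.73 without that array and by -0.68 with the beta-actin measure, where the difference between the lines on that set was -0.41.

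**Figure D1:**
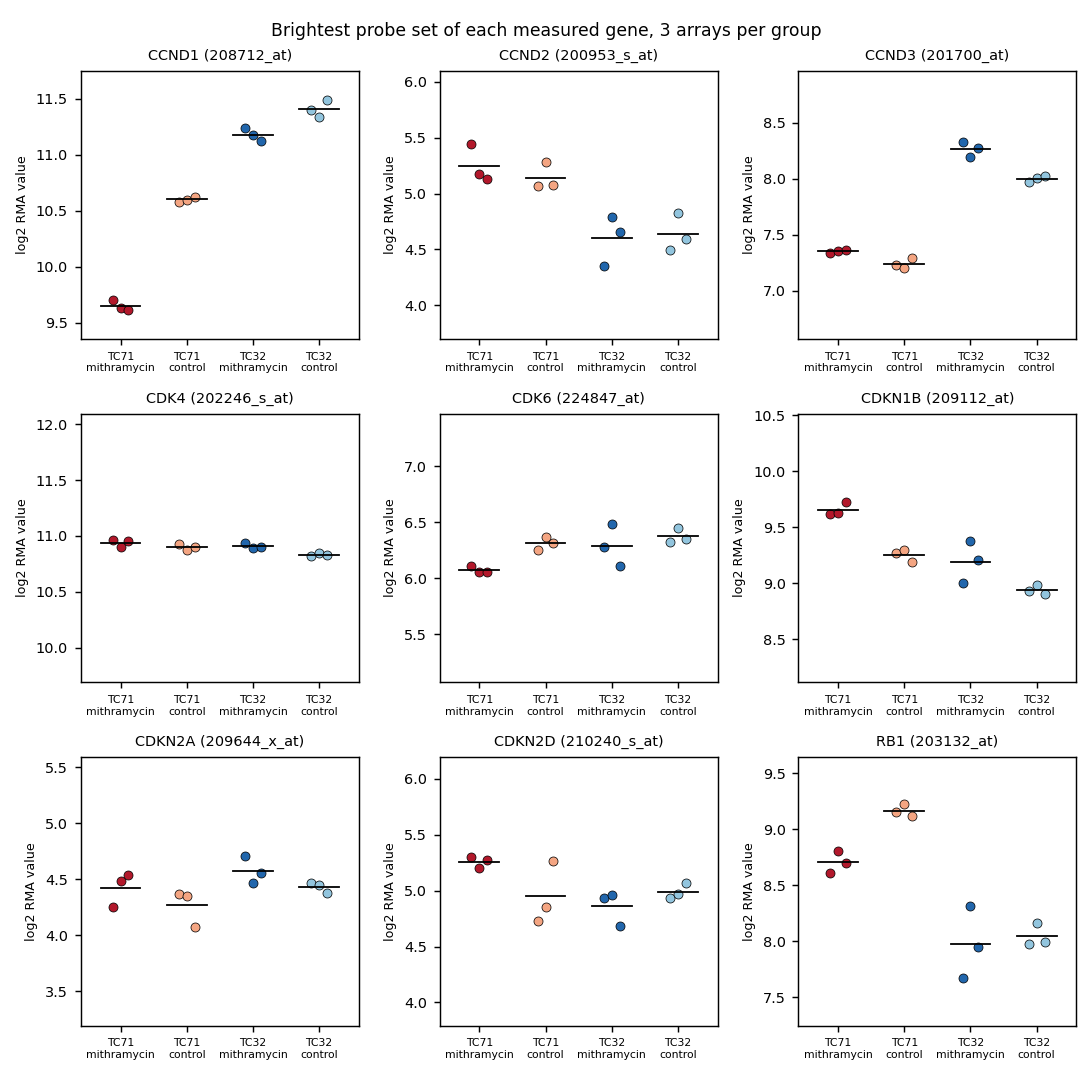
Log2 RMA value of the brightest probe set of each of the 9 measured genes on the 12 arrays. Each point is 1 array, each line the mean of 3 arrays, and every panel spans the same log2 range. CCND1 is lowest in TC71 with mithramycin, at 9.61 to 9.70, while CDK4 lies between 10.82 and 10.96 on all arrays.

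Because mithramycin prefers GC-rich DNA, the promoters of 3 members with clear signal are shown, 1 for each kind of molecule: a cyclin, a kinase and an inhibitor. The windows, from RefSeq (GRCh38.p14), hold 250 bases before and 50 after a transcript start and are printed on the gene's strand. Capitals mark the GC box core GGGCGG and its reverse complement CCGCCC, which were searched on both strands. They lie at chr6:41941759-41942058 (minus strand) for CCND3, chr12:57752261-57752560 (minus strand) for CDK4 and chr12:12717118-12717417 (plus strand) for CDKN1B. For CCND3, the most GC-rich of its 3 windows is shown.
CCND3: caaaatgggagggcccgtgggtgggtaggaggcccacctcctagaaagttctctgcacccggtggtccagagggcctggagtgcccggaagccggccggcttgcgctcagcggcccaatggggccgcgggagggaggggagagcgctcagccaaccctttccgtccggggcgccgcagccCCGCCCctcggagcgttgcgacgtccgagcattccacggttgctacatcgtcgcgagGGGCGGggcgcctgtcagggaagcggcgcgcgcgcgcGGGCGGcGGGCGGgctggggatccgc
CDK4: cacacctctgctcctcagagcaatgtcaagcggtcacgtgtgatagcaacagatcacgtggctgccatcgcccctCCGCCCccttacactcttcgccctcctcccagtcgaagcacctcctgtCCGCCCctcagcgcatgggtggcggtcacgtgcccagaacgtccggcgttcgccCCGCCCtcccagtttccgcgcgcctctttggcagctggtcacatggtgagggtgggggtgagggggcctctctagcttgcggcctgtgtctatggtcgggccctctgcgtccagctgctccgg
CDKN1B: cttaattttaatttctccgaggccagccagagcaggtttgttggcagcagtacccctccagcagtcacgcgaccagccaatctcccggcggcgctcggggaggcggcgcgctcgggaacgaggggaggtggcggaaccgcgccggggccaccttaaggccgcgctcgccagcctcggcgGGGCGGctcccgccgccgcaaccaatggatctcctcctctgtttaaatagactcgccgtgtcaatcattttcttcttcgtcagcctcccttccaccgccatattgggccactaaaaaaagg
GC content was 73.67% for CCND3, with 4 matches, 66% for CDK4, with 3 matches, and 62.33% for CDKN1B, with 1 match. The CCND3 windows not shown had 60.33% with 0 matches and 72.33% with 5. The CDK6 windows, also not shown, had 68.67% with 0 matches and 78% with 3. Those of CDKN2A had 69% with 2 matches and 63.33% with 0. The CDKN2D window had 68% with 3 matches, and the RB1 window 38.33% with 0. Whether GC content or matches go with the changes was not tested. Of all 35116 windows 44.95% held a match, and their median GC content was 58.67%. Of the measured members 7 had a window, and 7 of their 11 windows held a match. CCND1 and CCND2 had no entry. A match is a run of letters and not a shown binding site.

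CCND3, the gene of cyclin D3, was higher with mithramycin in TC32 and was lower in TC71 than in TC32 under both treatments. Its brightest set, 201700_at, read 7.34, 7.36 and 7.37 in TC71 with mithramycin, against 7.23, 7.20 and 7.30 in TC71 controls. The TC32 values were 8.33, 8.20 and 8.27 with mithramycin, against 7.97, 8.01 and 8.03 in controls. Treated arrays lay above their controls in both lines. The change was called in TC32 (0.26 ± 0.06, adjusted p = 0.00413) and not in TC71 (0.11 ± 0.06, adjusted p = 0.2), and the 2 effects did not differ by test (-0.15 ± 0.09, adjusted p = 0.389). Centred on hybridization controls, the TC32 change was 0.11 (adjusted p = 0.513). With only sets of mean 6 or more in the fit, the TC71 change was called as well. The other set, 1562028_at, averaged 4.09, within the range of the markers of other cell types, and changed by -0.02 in TC71 and 0.14 in TC32, neither called.

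CCND2, the gene of cyclin D2, was dim on all 4 of its sets, whose means of 2.31 to 4.91 lay within the range of the markers of other cell types. The highest of these means lay above every such marker except TTR. The brightest set, 200953_s_at, averaged 5.25 ± 0.17 in TC71 with mithramycin and 5.14 ± 0.13 in TC71 controls. It averaged 4.60 ± 0.22 in TC32 with mithramycin and 4.64 ± 0.17 in TC32 controls. Groups overlapped within each line on this set. A dimmer set, 231259_s_at, was called higher in TC32 (0.35 ± 0.11, adjusted p = 0.0218), at 3.40 with mithramycin against 3.05 in controls. That call was lost without TC32 mithramycin replicate 3 (adjusted p = 0.0602) and without TC32 control replicate 2 (0.0801) or 3 (0.0661). It was also lost after a further quantile normalization (0.0606) and with hybridization-control centring (0.216).

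CDK4, a kinase partner of the D-type cyclins with 1 bright set (202246_s_at), was called in no comparison of the lines or treatments. It read 10.96, 10.90 and 10.95 in TC71 with mithramycin, against 10.93, 10.88 and 10.90 in TC71 controls. In TC32 it read 10.94, 10.89 and 10.90 with mithramycin, against 10.82, 10.84 and 10.83 in controls. The TC71 groups overlapped, and the TC32 treated arrays lay just above their controls. The 95% confidence interval of the change ran from -0.09 to 0.15 in TC71 and from -0.04 to 0.20 in TC32. Only an intensity trend with robust moderation called the TC32 change of 0.08. CDK6, the other kinase, was measured by 7 sets with means of 1.86 to 6.26, and none was called. On the brightest, 224847_at, it averaged 6.07 ± 0.03 in TC71 with mithramycin and 6.31 ± 0.06 in TC71 controls. In TC32 it averaged 6.29 ± 0.18 with mithramycin and 6.37 ± 0.07 in controls. The TC71 arrays did not overlap, and the change of -0.24 ± 0.09 had an adjusted p of 0.0552. It passed the threshold in 7 alternative fits, among them those without TC32 mithramycin replicate 2 or 3.

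CDKN1B, the gene of the inhibitor p27, was the only member called higher in both lines. Its single set, 209112_at, read 9.62, 9.63 and 9.73 in TC71 with mithramycin, against 9.27, 9.30 and 9.19 in TC71 controls. The TC32 values were 9.00, 9.38 and 9.21 with mithramycin, against 8.93, 8.98 and 8.90 in controls. No arrays overlapped within a line. CDKN1B rose by 0.41 ± 0.09 in TC71 (adjusted p = 0.00309) and by 0.26 ± 0.09 in TC32 (adjusted p = 0.0341), and the effects did not differ by test (0.15 ± 0.12, adjusted p = 0.586). The TC32 call is fragile. Without TC32 mithramycin replicate 2 the change was 0.17 (adjusted p = 0.12), and the call was also lost without TC32 mithramycin replicate 3 (0.0807) and without TC32 control replicate 1 (0.0768), 2 (0.0516) or 3 (0.0909). Housekeeping centring gave 0.0798, hybridization-control centring 0.584 (change 0.10), and the TC32 groups alone 0.0951.

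The INK4 genes were dim. CDKN2A, which encodes p16 and p14ARF, had 3 sets with means of 2.88 to 4.42, and CDKN2D, which encodes p19, had 2 sets with means of 3.20 and 5.01. All 5 lay within the range of the markers of other cell types, and none was called in the fit over all probe sets. The brighter CDKN2D set lay above every such marker except TTR. The brighter CDKN2D set, 210240_s_at, read 5.30, 5.20 and 5.28 in TC71 with mithramycin, against 4.73, 4.86 and 5.26 in TC71 controls. One TC71 control array thus reached the treated arrays, and the change was 0.31 ± 0.12 (adjusted p = 0.0713). Without that array, TC71 control replicate 3, it was 0.47 (adjusted p = 0.0032), and the difference between the lines' effects was 0.60 (adjusted p = 0.0173). Hybridization-control centring also called both. CDKN2A 211156_at passed in TC32 without TC32 mithramycin replicate 1.

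RB1, the gene of the retinoblastoma protein, was lower with mithramycin in TC71. On its brighter set, 203132_at, it read 8.61, 8.81 and 8.70 in TC71 with mithramycin, against 9.15, 9.22 and 9.12 in TC71 controls. In TC32 it read 7.67, 8.31 and 7.94 with mithramycin, against 7.97, 8.16 and 7.99 in controls. The TC71 groups did not overlap and the TC32 groups did. The change was -0.46 ± 0.13 in TC71 (adjusted p = 0.0159) and -0.07 ± 0.13 in TC32 (adjusted p = 0.713), and the 2 effects did not differ by test (-0.39 ± 0.18, adjusted p = 0.267). The TC71 call was lost without TC71 mithramycin replicate 1 (-0.41, adjusted p = 0.0607) and without TC71 control replicate 2 (-0.43, adjusted p = 0.0566). It was also lost with hybridization-control centring (adjusted p = 0.0514), with the mean of both RB1 sets (-0.15, adjusted p = 0.15) and with the beta-actin covariate (-0.43, adjusted p = 0.156). Without TC32 mithramycin replicate 1 the difference of the effects was -0.55 (adjusted p = 0.0476). The other set, 211540_s_at, averaged 3.83 and was not called.

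Counted over the 24 sets, 1 was called higher with mithramycin in TC71 (4.17%, CDKN1B) and 3 lower (12.5%, both CCND1 sets and RB1), against 14.5% higher and 13.7% lower of all probe sets. In TC32, 3 were called higher (12.5%, CCND2, CCND3 and CDKN1B) and 2 lower (8.33%, both CCND1 sets), against 19.4% and 16.9% of all probe sets. Each of these shares was below that of all probe sets. Many of the sets are dim, and CCND1 was chosen with its response known, so nothing further is read from them. By the brightest sets of the 9 genes, 1 was higher and 2 lower in TC71, against 17% and 15.3% of all genes. In TC32, 2 were higher and 1 lower, against 23.1% and 18.5%. With 9 genes, no reading is drawn from these counts by gene. The median change of the 24 sets was 0.01 in TC71 and 0.08 in TC32, beside 0.05 and 0.06 over all sets. For the difference of the effects, 0 sets were higher and 2 lower, both of CCND1, where all probe sets gave 4.38% and 2.48%. The CCND1 difference was known when the members were chosen, so nothing is read from that count.

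**Figure D2:**
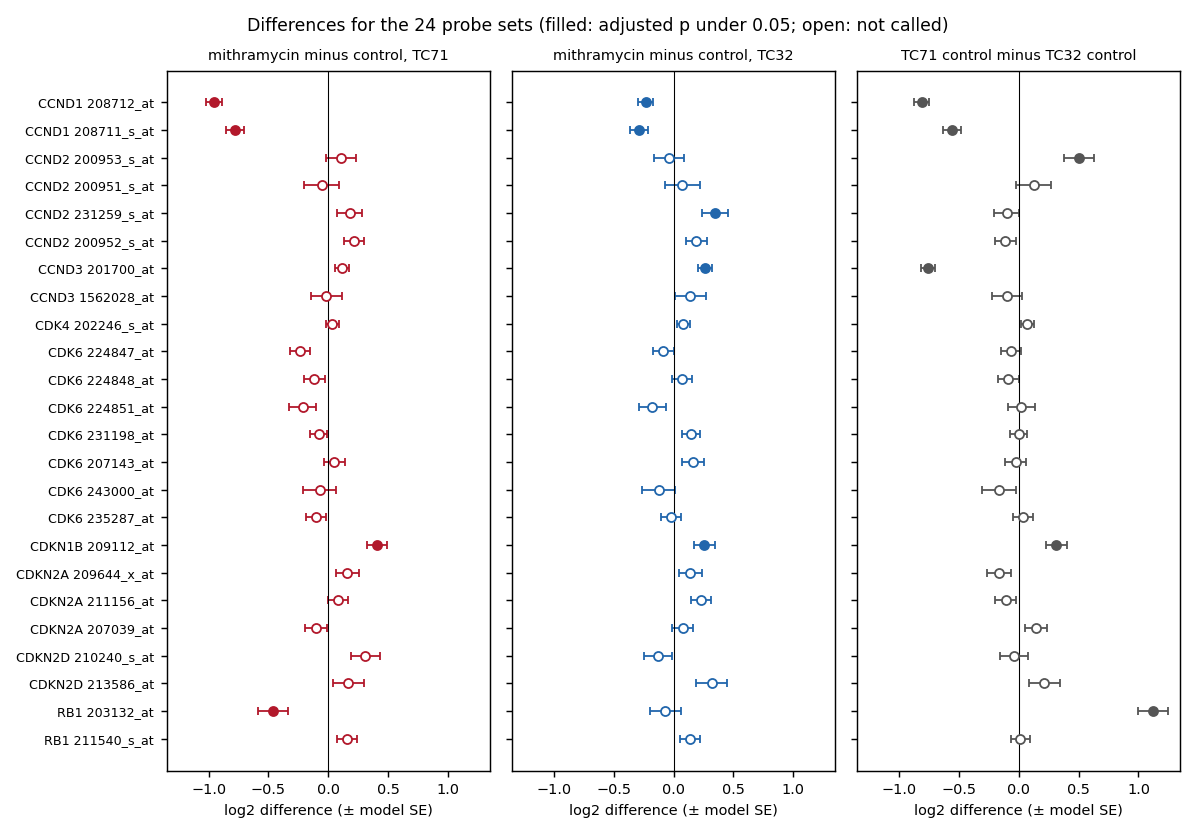
Log2 differences with model SE for the 24 probe sets: mithramycin minus control in TC71, the same in TC32, and TC71 control minus TC32 control. Filled points passed an adjusted p of 0.05. Both CCND1 sets lie left of 0 in all 3 panels, and RB1 203132_at lies farthest right in the last, at 1.12.

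In solvent controls the lines differed in several members. RB1 was higher in TC71 by 1.12 ± 0.13 (2.18 times the TC32 level, adjusted p = 6.89e-06) on its brighter set, by 0.01 on its other, dim set, and by 0.57 with the mean of both. CCND1 was lower in TC71, by -0.81 ± 0.06 and -0.56 ± 0.08 on its 2 sets (adjusted p = 1.79e-07 and 3.37e-05), and CCND3 by -0.76 ± 0.06 on its brightest set (adjusted p = 2.03e-07). The other CCND3 set, which is dim, differed by -0.10 and was not called, and the mean of both differed by -0.43. CDKN1B was higher in TC71 by 0.31 ± 0.09 (adjusted p = 0.00932), a call lost with the beta-actin covariate (0.25, adjusted p = 0.238). CCND2 was higher in TC71 by 0.50 ± 0.12 on its brightest set (adjusted p = 0.00479), and by 0.10 with the mean of its 4 sets, where the call was lost. In all, 3 sets were called higher and 3 lower (12.5% each), against 20.7% and 21.9% of all probe sets. 

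Among 29 partners and regulators of the D-type cyclin kinases, taken by their brightest sets, 6 were called higher and 11 lower with mithramycin in TC71, and 7 higher and 12 lower in TC32. The brightest sets of all genes were called higher in 17% and lower in 15.3% in TC71, and higher in 23.1% and lower in 18.5% in TC32. RBL1, which encodes the pocket protein p107, read 4.71, 4.67 and 4.65 in TC71 with mithramycin, against 6.72, 6.72 and 6.50 in TC71 controls. In TC32 it read 4.56, 5.27 and 5.30 with mithramycin, against 6.74, 6.69 and 6.51 in controls. RBL1 fell in both lines, with changes of -1.97 in TC71 and -1.60 in TC32 (adjusted p = 9.48e-07 and 4.1e-06), although the weakest of its 4 sets changed by -0.04 averaged over the lines, and all 4 sets together changed by -0.72 in TC71 and -0.57 in TC32. Its treated means, 4.68 in TC71 and 5.04 in TC32, lay within the range of the markers of other cell types, so those levels were not shown to be above background. Both means lay above every such marker except TTR. FBXO31, an F-box protein known to target cyclin D1, fell too, with changes of -0.98 in TC71 and -0.83 in TC32, while its other set changed by 0.10 averaged over the lines, and both sets together by -0.45 in TC71 and -0.35 in TC32. Its treated mean in TC32, 4.98, also lay within that range, above every marker except TTR. For E2F3, an activating E2F factor, the called changes were -0.77 in TC71 and -0.91 in TC32.

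CDKN1A, the gene of the inhibitor p21, read 6.79, 6.80 and 6.73 in TC71 with mithramycin, against 6.39, 6.31 and 6.18 in TC71 controls. In TC32 it read 8.12, 8.03 and 8.06 with mithramycin, against 7.26, 7.13 and 7.18 in controls. CDKN1A thus rose in both lines, by 0.48 ± 0.07 in TC71 (adjusted p = 0.000167) and by 0.88 ± 0.07 in TC32 (adjusted p = 5.25e-07). CDK2, the kinase partner of cyclin E, rose by 0.40 in TC71 and 0.38 in TC32, and CCNE1, a cyclin E gene, by 0.22 in TC71 and 0.32 in TC32. CCNE2, the other cyclin E gene, changed by -0.02 in TC71 and -0.22 in TC32 (adjusted p = 0.882 and 0.0585), and CDKN2B, the INK4 gene of p15, by 0.09 and 0.12 (0.504 and 0.305). These are their brightest sets, which were called in neither line; the other set of each gene was called higher in TC71.

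Of 26 E2F target genes 25 were measured. In TC71, 3 were called higher and 5 lower, and in TC32 2 were higher and 5 lower. CCNE1, CCNE2, CDC25A, RBL1, E2F1 and E2F2 are also among the partners, so their calls count in both lists. The shares over all genes are those given above for the partners, and nothing particular to the E2F targets is read from these counts. UHRF1, a reader of hemimethylated DNA, fell in both lines (-0.83 in TC71 and -0.72 in TC32). E2F2, another activating E2F, fell likewise (-0.37 in TC71 and -0.68 in TC32, with -0.27 and -0.33 for the mean of its 3 sets), as did CDC25A, a phosphatase that activates CDK2 (-0.23 in TC71 and -0.59 in TC32). E2F1 was not called, with changes of 0.03 in TC71 and -0.02 in TC32 (adjusted p = 0.771 and 0.817). The median change of the E2F targets was 0.03 in TC71 and -0.01 in TC32, and that of the partners -0.05 in TC71 and -0.12 in TC32, beside 0.07 and 0.08 over all genes.

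The effects of the 2 lines differed by test for 4 of the 29 partners, with CDK7 and CDC25A higher and CDKN1A and FBXO4 lower in TC71 relative to TC32. Over the brightest sets of all genes 5.18% were higher and 2.83% lower. Among the E2F targets this was CDC25A alone.

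**Figure D3:**
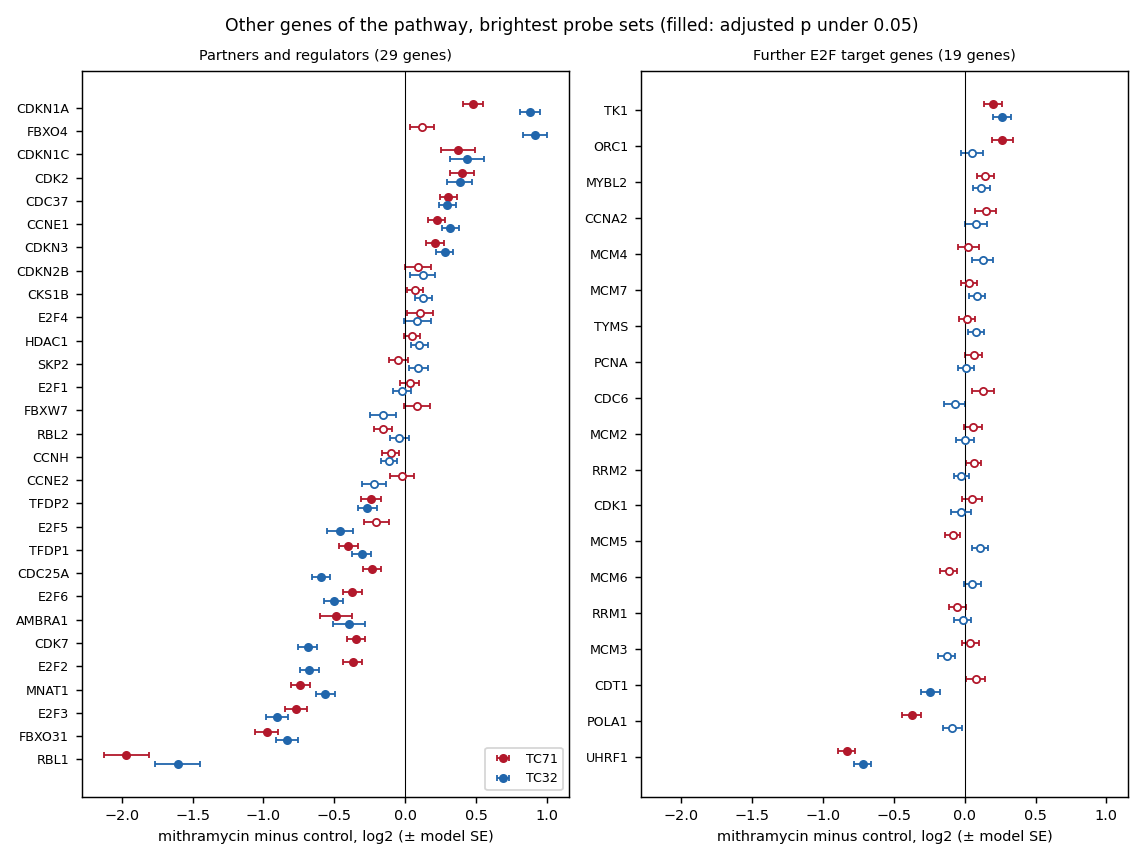
Mithramycin minus control on the log2 scale, with model SE, for 29 partners and regulators and for 19 further E2F targets, by brightest probe set. TC71 is drawn above TC32 for each gene, and filled points passed an adjusted p of 0.05. RBL1 lies farthest left and most E2F targets lie near 0.

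Compared with CCND1 were 8384 genes whose brightest set averaged at least 6, without those annotated to chromosome Y. Over the 12 arrays, the genes whose brightest set followed CCND1 most closely among them were SEPTIN9 (Pearson r = 0.994), LPCAT1 (0.993), ACACA (0.991), TBC1D31 (0.990) and TAOK3 (0.990). These points fall into 4 groups, and the arrays of a group share line and treatment. With group means removed, the correlations were 0.434, 0.845, 0.644, 0.590 and 0.213 in the same order. They are descriptions over 12 arrays.

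**Figure D4:**
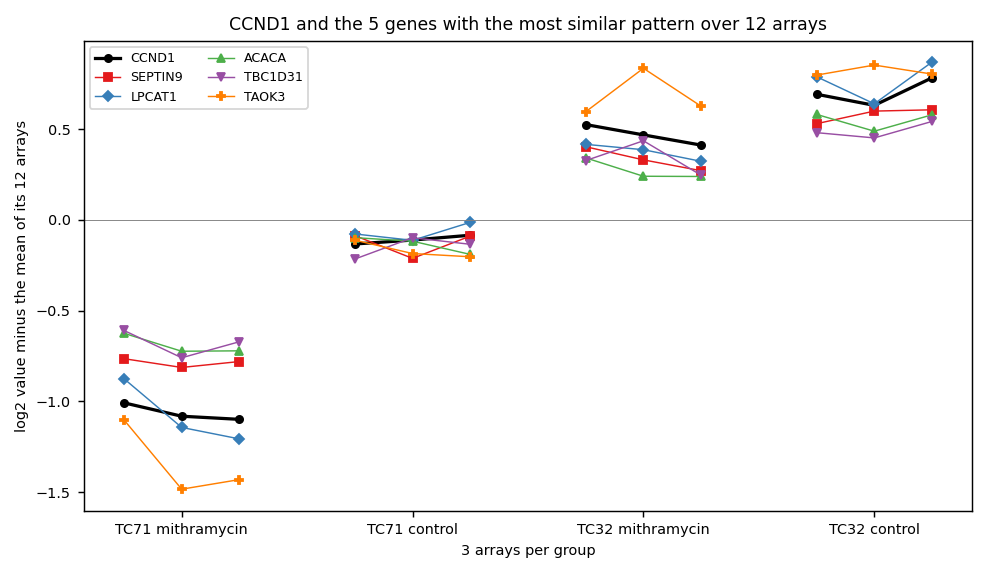
Log2 value of CCND1 and of the 5 most similar of the compared genes on each array, minus that gene's mean over the 12 arrays. Points of a group are joined. All 6 genes are lowest in TC71 with mithramycin and highest in TC32 with or without it.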

How the data were processed

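Expression was measured on 12 one-colour arrays, and the deposited values are log2 RMA values by probe set, per the submitters' processing notes. The RMA version is not given in the sources used here. The method subtracts background, quantile-normalizes probes and summarizes sets, so a shift shared by most genes is largely removed. Of 54675 sets, 62 controls stayed out of the tests. All 12 arrays entered 1 limma fit (limma 3.58.1, R 4.3.3; lmFit and eBayes) with a mean per group, tested on simulated data. Symbols come from the platform annotation, and those of genes other than the members were updated to RefSeq GRCh38.p14 (names only). The number of arrays limits the precision. No detection calls or batch labels were used.

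The members and lists were chosen with earlier results of these data known. Named were all member sets, the 4 partners and the 4 E2F targets with the largest mean effect among those called in both lines, CDKN1A, CDKN2B, CCNE1, CCNE2, CDK2 and E2F1, and the 5 genes most correlated with CCND1. CDK7 and FBXO4 were named after their values were seen. The main fit did not pair arrays by replicate number. Deviations of same-numbered arrays correlated between -0.15 and 0.21 over 18 pairs, others between -0.17 and 0.12. The same-number correlations were all positive among both TC32 groups and TC71 controls (0.007 to 0.21). Those with TC71 mithramycin arrays were all negative (-0.15 to -0.008). Whether the numbers mark a shared batch was not tested. Alternatives were the replicate block, each array left out, a minimum mean of 6, centring on housekeeping genes or hybridization controls, a further quantile normalization, brightest set or mean of sets per gene, sets without _x_at and _s_at, an intensity trend with robust moderation, and the contrast's groups alone. The beta-actin covariate was added after seeing the data.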

Additional observations from a re-analysis of the deposited data

Results flagged for a closer look

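The CCND1 response differed between the lines, by -0.72 on 208712_at and -0.49 on 208711_s_at (TC71 effect minus TC32 effect), as was known when the gene was chosen. CDKN1A rose less in TC71 than in TC32 (-0.40 ± 0.10, limma adjusted p = 0.0258), and 7 of the 12 fits that left out 1 array lost this call. CDC25A and CDK7 fell less in TC71, with differences of 0.36 ± 0.09 (adjusted p = 0.029) and 0.34 ± 0.09 (adjusted p = 0.0444); 8 of 12 such fits lost the CDC25A call and 11 of 12 the CDK7 call. The F-box gene FBXO4 differed by -0.79 ± 0.12 (adjusted p = 0.00123), a call kept without any 1 array. It read 7.87, 7.81 and 7.89 in TC71 with mithramycin, against 7.69, 7.81 and 7.71 in TC71 controls, and 4.68, 4.98 and 4.93 in TC32 with mithramycin, against 3.92, 3.87 and 4.06 in TC32 controls. The TC32 values lay within the range of the markers of other cell types (2.14 to 5.25), so they were not shown to be above background. Those with mithramycin lay above the mean of every such marker except TTR. The 3 FBXO4 sets disagreed, with changes of -0.40 to 0.52 averaged over the lines, and all 3 together gave a difference of -0.50.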

How the results depend on the processing

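In 2936 of the combinations of result and setting, a change kept its direction and call status, or a count stayed equal or close. A call was lost in 96 and gained in 33. In 136 an uncalled value turned sign or a count changed more, and in 1 a called value reversed. The reversal was the control difference of CDK2, -0.047 with the mean of its sets. Of the 24 member sets, centring on hybridization controls left 0 higher in TC32, 3 higher in TC71, 1 higher and 1 lower for the difference. A minimum mean of 6 gave 2 higher in TC71. Without _x_at and _s_at sets, 1 was lower in TC32 and 1 for the difference, a change made by the sets left out. The contrast's groups alone gave 1 lower in TC32, and the beta-actin covariate 1 lower for the difference. Leaving out 1 array gave 1 to 2 higher and 2 to 4 lower in TC71, 1 to 4 higher and 1 to 2 lower in TC32, and 0 to 1 higher and 2 to 3 lower for the difference. Of the 29 partners, the count higher in TC71 was 2 or 3 (6 in the report) with the beta-actin covariate, housekeeping centring, sets without _x_at and _s_at, or without TC71 control replicate 1; hybridization-control centring gave 6 lower in TC71 (11 in the report) and 2 higher in TC32 (7), and sets without _x_at and _s_at 7 lower in each line (11 and 12). E2F targets called higher ran from 0 to 8 in TC71 (3) and from 0 to 5 in TC32 (2), with the mean of sets the highest in both, and hybridization-control centring gave 3 lower in TC71 (5). With the replicate number as a block, CDK6 224847_at was called in TC71 (-0.24, limma adjusted p = 0.0465) and CDKN2D 213586_at in TC32 (0.32, adjusted p = 0.0381), while CDC25A (0.0526) and CDK7 (0.0716) lost the difference of effects and CDK2 (0.0523) the control difference. The causes were not tested. With 3 arrays per group, small changes of dim sets could not be told from the spread.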
